A study of Mus musculus with 22 samples.

Results

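Retinal progenitor cells of embryonic day 12.5 (E12.5) were set against Müller glia of 1.5-year-old mice by RNA sequencing. The comparison takes the 3 progenitor libraries and the 2 aged glia libraries, which are 5 of the 10 RNA libraries in a series of 22 samples. The labels give C57BL/6 as the background of every sample. The progenitors were taken from retina of E12.5 embryos by their labels, with no sorting step or marker stated, so their libraries can hold any cell of the tissue that was collected. The aged cells were isolated by fluorescence-activated cell sorting of Rlbp1-GFP reporter mice, in which the green fluorescent protein marks cells that use the Müller gene Rlbp1, and neither group received a treatment by its labels. The series describes the aged pair as biological replicates and the progenitor libraries as replicates, and the labels name no animal, litter or sex. The p-values therefore measure the spread between these libraries, which may in part be technical. Of 44792 genes counted, 17718 had enough counts in these 5 libraries to be tested.

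Retinal progenitors are dividing, multipotent cells of the embryonic eye. They first expand and release early neurons such as ganglion cells, cones, horizontal and amacrine cells, and later make rods, bipolar cells and, among the last, Müller glia. Müller glia span the adult retina, clear glutamate, move potassium and water, feed neurons and return visual chromophore to cones. In fish they can re-enter the cell cycle and rebuild neurons after injury, while in mammals they mostly respond by gliosis, which is why the distance between a mature Müller cell and a progenitor is often measured.

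The defining markers of each labelled cell type were high in the group that bears its name. The progenitor factors Fgf15, a secreted signal of the embryonic retina, and Sfrp2, a secreted Wnt modulator, were at 579, 474 and 570.4 CPM and 2047, 1915 and 1915 CPM in the 3 progenitor libraries. CPM is the count on the usual scale of a common library size, here with totals corrected for composition by TMM factors, which allows a gene to be compared between libraries but not with another gene, since it is not divided by length. In the 2 aged libraries Fgf15 was at 0.1603 and 0.385 CPM and Sfrp2 had no count. The glial markers ran the other way. Rlbp1, the retinaldehyde-binding protein of the cone visual cycle, was at 6.19, 3.54 and 2.45 CPM in the progenitors and 3618 and 3254 CPM in the aged glia, and the sort itself selected for this gene in the aged cells. Glul, glutamine synthetase, was at 476, 490.2 and 478 CPM in the progenitors and 29510.1 and 30763 CPM in the aged glia. The potassium channel gene Kcnj10 was at 0.253, 0.482 and 0.396 CPM in the progenitors and 1270.1 and 1359 CPM in the aged glia. No progenitor library overlapped an aged library in any of these 5 genes, and how common this was among all genes was not counted.

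Across all genes, 6978 were higher and 7053 lower in progenitors by edgeR's quasi-likelihood test at a Benjamini-Hochberg adjusted p under 0.05, which is 39.4% and 39.8% of the genes tested. A change of at least 4-fold was called for 2535 genes higher (14.3%) and 3526 lower (19.9%). The median log2 change over all genes was 0.02. In either direction together, 79.2% of the genes tested were called. With calls this common, the count for a gene group is read against these shares, and its median against the median over all genes. The share of all genes whose groups do not overlap was not counted, so a lack of overlap describes the values of a gene and sets it apart from no other. These are bulk libraries, so a lower value can mean fewer cells of a type or less RNA of that gene per cell, and these cannot be told apart.

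**Figure D1:**
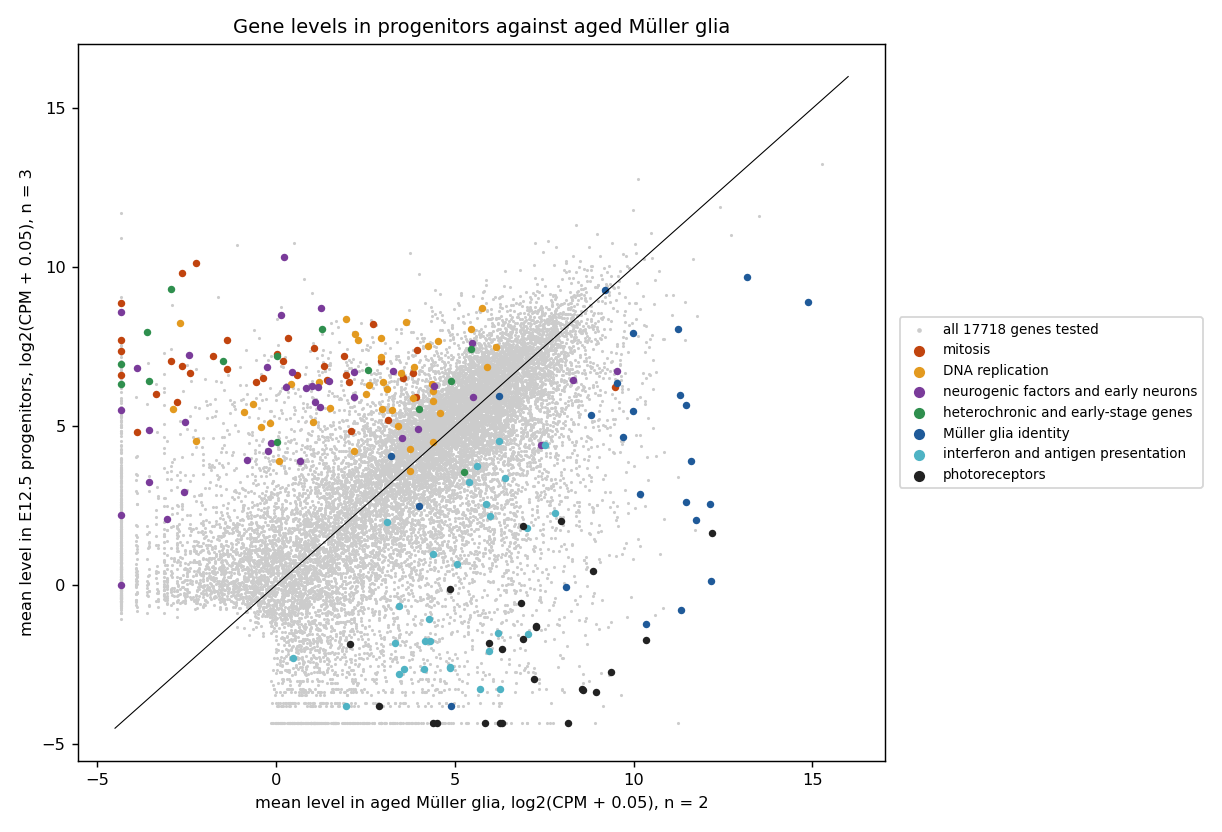
Mean level of each gene tested in the 3 progenitor libraries (vertical) against its mean in the 2 aged libraries (horizontal), both as log2(CPM + 0.05), with 7 gene lists in colour and the line of equal level drawn. Genes of mitosis, DNA replication, early neurons and early-stage regulators lie mostly above the line, and genes of Müller identity, antigen presentation and photoreceptors lie mostly below it.

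Several properties of the libraries bear on what follows. Totals were between 11067405 and 14520423 counts in the progenitor libraries, against 33213893 and 36486072 in the aged libraries. The median coefficient of variation of genes at 8 CPM or more was 6.07% among the progenitor libraries and 5.97% between the aged libraries. In the aged libraries 61.7% and 63.4% of counts between 4 and 60 were even numbers, against 52.5% to 53.1% in the progenitor libraries, and whether read pairs were counted differently was not tested. The series also holds RNA libraries of young Müller glia (2 to 3 months old) and of such glia after NMDA, a glutamate receptor agonist. A set of 1055 genes tested (5.95%) was at least 2-fold higher in every aged and every NMDA library than in every progenitor and every young library, and this set made up 959 of the 3526 genes at least 4-fold lower (27.2%). Eif4e, the cap-binding translation factor, is an example, with no count in the progenitor and young libraries, 72.1 and 68.2 CPM in the aged libraries and 96.9 to 114 CPM in the NMDA libraries. Among the 372 genes with at least an 8-fold gap of this kind, 76.6% have an annotated span that overlaps another gene, against 42.8% of all genes tested, and the opposite pattern at 8-fold was seen for 11 genes. For genes of this set the progenitor state and whatever places the young glia beside the progenitors cannot be told apart, and they are called the library-split set.

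RNA of genes used as markers of other cells was present on both sides. Hemoglobin and other red cell genes summed to 10119, 3011 and 1574 CPM in the progenitor libraries, against 2.85 and 1.75 CPM in the aged libraries, with 11 of 12 tested markers higher. Library 1 of the progenitors held the most of this RNA, and library 3 held the least for all 12 markers. The embryonic globin gene Hbb-y, with 7079, 1979.5 and 1034 CPM in the progenitors and no count in the aged glia, had the highest log2 change of any gene that met the naming rule, at least 72868-fold against the limit of 3 counts over the aged libraries. The embryonic alpha globin Hba-x was at 977, 441 and 205 CPM in the progenitors and had no count in the aged glia. Periocular mesenchyme markers summed to 59.5, 203 and 109 CPM in the progenitors and 73.4 and 113 CPM in the aged glia, with library 2 the highest progenitor library for 8 of 13 genes. Although these sums overlap, 10 of the 13 markers were higher in progenitors, 9 of them at least 4-fold, and 2 were lower (median log2 change 4.41). The 2 lower markers were Pdgfra, at 0.948, 3.94 and 2.69 CPM in the progenitors, against 25.7 and 56.9 CPM in the aged glia, and Dcn, at 0.632, 3.86 and 2.06 CPM in the progenitors, against 17.8 and 21.7 CPM in the aged glia. On the aged side, 25 of 25 photoreceptor markers were called lower in progenitors, with sums of 17.6, 15.0 and 14.6 CPM in the progenitors, against 12218 and 8062 CPM in the aged glia. Library 1 of the aged glia was above library 2 for all 25 markers. Microglial markers summed to 104, 116 and 94.8 CPM in the progenitors and 199 and 228 CPM in the aged glia. Vascular markers summed to 247, 241 and 240.3 CPM in the progenitors, against 4733 and 4709 CPM in the aged glia. Most of the aged sum came from Flt1 and Kdr, receptors of vascular growth factor. Of 14 vascular markers tested, 2 were higher in progenitors, 5 lower and 7 did not pass, with a median log2 change of 0.05. Astrocyte and oligodendrocyte markers summed to 132, 174 and 129 CPM in the progenitors, against 4355 and 4804 CPM in the aged glia. Most of the aged sum came from Slc1a2, a glutamate transporter in the library-split set, and Aldoc, the glial aldolase described below. Of 10 such markers tested, 3 were higher in progenitors and 5 lower, with a median log2 change of -2.53.

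**Figure D2:**
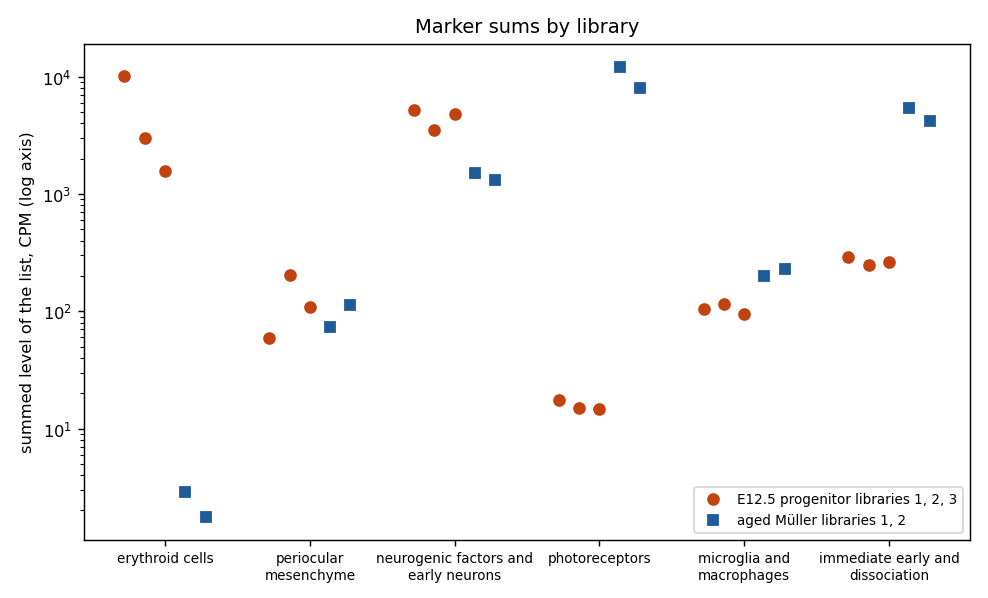
Summed CPM (log axis) of 6 marker lists, with 1 point per library, progenitor libraries left and aged libraries right within each list. Red cell RNA is high in the 3 progenitor libraries, photoreceptor RNA and immediate early gene RNA are high in the 2 aged libraries, and the periocular mesenchyme sums of the groups overlap although 10 of 13 of its markers were higher in progenitors.

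Müller identity genes were lower in progenitors almost throughout. Of 24 tested, 22 were lower and 1 was higher, with a median log2 change of -5.56. Summed over the list, the level was 2938, 2869.7 and 2855 CPM in the progenitors, against 75565 and 75888 CPM in the aged glia. Rlbp1 was 821-fold lower in progenitors (log2 -9.68 ± 0.24, SE, adjusted p 9.73e-10 by edgeR's quasi-likelihood test). Aqp4, the water channel of glial endfeet, was at 0.695, 0.884 and 0 CPM in the progenitors, against 2607 and 2572 CPM in the aged glia, a log2 change of -12.22 ± 0.27 (SE). Kcnj10, which carries the potassium current of Müller cells, changed by -11.78 ± 0.13 on the log2 scale. Glul, which turns glutamate into glutamine, kept a measurable level in progenitors, and its change was -5.97 ± 0.07 on the log2 scale. Slc1a3, the glial glutamate transporter GLAST, was likewise measurable in progenitors at 60.3, 69.5 and 60.2 CPM, against 2612 and 2414 CPM in the aged glia. None of these genes had overlapping groups, which was not set against all genes tested.

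Genes of lipid transport were mostly lower in progenitors as well. Apoe, the lipoprotein component that glia secrete, was at 46.9, 63.7 and 41.7 CPM in the progenitors, against 2844 and 2864 CPM in the aged glia. Clu, the extracellular chaperone clusterin, was at 7.71, 6.59 and 3.09 CPM in the progenitors, against 4544 and 4405 CPM in the aged glia. Abca8a, an ABC-family transporter, was at 2.46, 0.322 and 0.316 CPM in the progenitors, against 4559 and 4607 CPM in the aged glia, and its highest progenitor value was in library 1. Dkk3, a Müller identity gene that encodes a secreted protein of the Dickkopf family, was already at 855, 787 and 865 CPM in progenitors and at 9275 and 9133 CPM in aged glia, a change of -3.46 ± 0.07 on the log2 scale. The list for lipid transport had 18 of 24 genes lower and 5 higher. Among the higher members were the fatty acid carrier Fabp5, at 124, 111 and 113 CPM in the progenitors, against 0.705 and 1.51 CPM in the aged glia, and the lipase Lpl, at 30.6, 25.2 and 24.0 CPM in the progenitors, against 0.866 and 0.280 CPM in the aged glia.

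A few genes known from Müller glia differed little between the groups or went against the rest. Vim, the intermediate filament protein vimentin, was at 641, 635 and 616 CPM in the progenitors and 606 and 582 CPM in the aged glia (log2 0.09 ± 0.06, SE, adjusted p 0.218), which did not pass edgeR's quasi-likelihood test. With upper-quartile scaling it passed, at log2 0.26 (adjusted p 0.00281). Id3, an inhibitor of neural differentiation factors, was at 59.0, 62.7 and 61.9 CPM in progenitors and 69.7 and 81.0 CPM in aged glia, a log2 change of -0.30 that is lost with upper-quartile scaling and without aged library 2 (log2 -0.19, adjusted p 0.0952). Slc4a4, a sodium bicarbonate cotransporter, was the member of the list that was higher, at 15.4, 19.4 and 15.3 CPM in the progenitors, against 7.76 and 10.6 CPM in the aged glia, and its call is lost in the fit over all 10 RNA libraries. Unlike these genes, Acsl3, an acyl-CoA synthetase, was far lower, at 14.5, 13.8 and 16.4 CPM in the progenitors, against 3077 and 3163 CPM in the aged glia. Acsl3 belongs to the library-split set, with 245 and 323 CPM in young glia.

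Ion and water handling, a central task of the mature glia, followed the same direction. Of 20 genes tested, 17 were lower in progenitors, 1 was higher, and 2 did not pass. Atp1b2, a beta subunit of the sodium pump, was at 41.5, 38.7 and 35.1 CPM in the progenitors, against 1398 and 1328 CPM in the aged glia, and the carbonic anhydrase gene Car14 was at 78.6, 97.4 and 72.8 CPM in the progenitors, against 719.6 and 762 CPM in the aged glia. Dmd, whose short dystrophin product anchors channels at glial endfeet, had no count in progenitors and 217 and 216 CPM in aged glia, but it also had no count in young glia and is in the library-split set. Glutamate handling was more mixed, with 11 of 19 genes lower and 5 higher. Slc38a3, which exports glutamine, was at 40.9, 55.6 and 37.1 CPM in the progenitors, against 1036 and 1004 CPM in the aged glia. In the other direction, the neutral amino acid transporter Slc1a5 was at 37.7, 41.2 and 38.1 CPM in the progenitors, against 1.80 and 1.402 CPM in the aged glia, and the mitochondrial aspartate aminotransferase Got2 was at 159, 155 and 148 CPM in the progenitors, against 41.5 and 38.1 CPM in the aged glia.

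**Figure D3:**
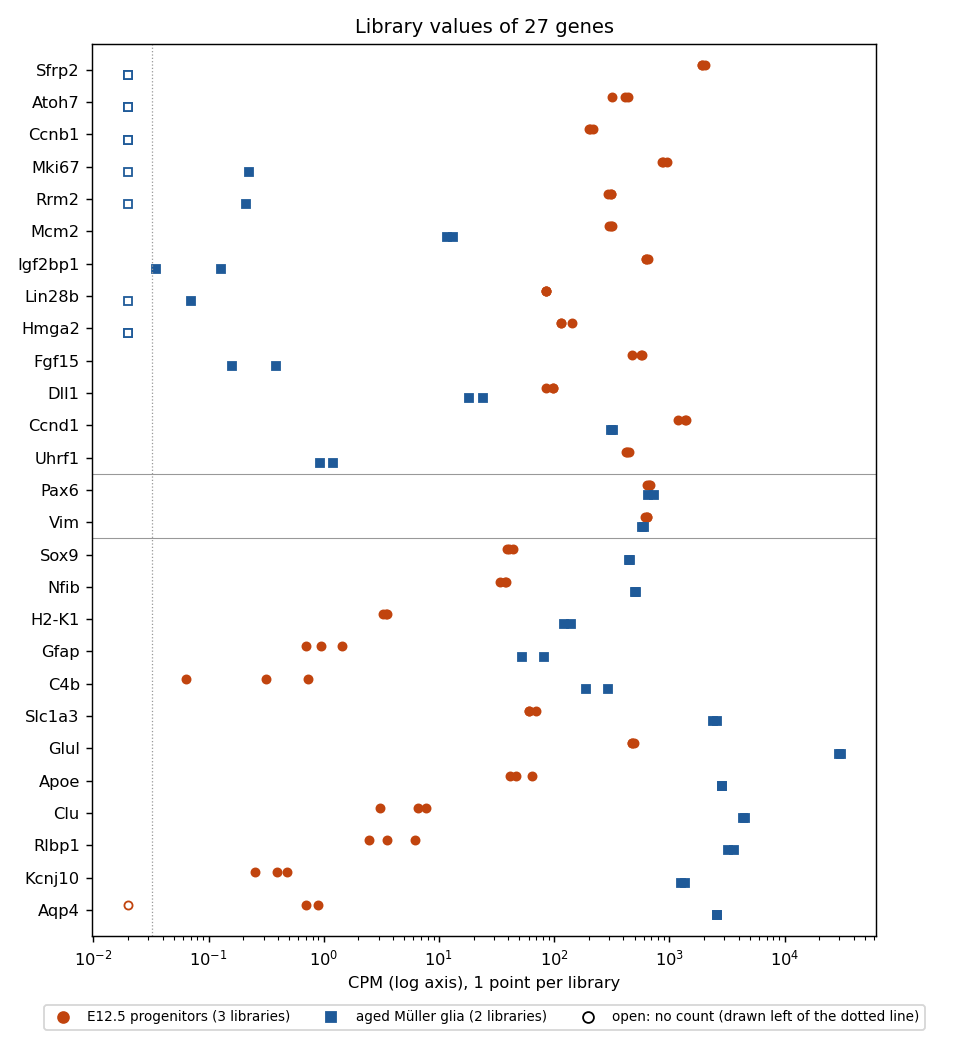
CPM on a log axis for 27 genes, with 1 point per library. The 13 genes in the top block lie higher in the 3 progenitor libraries, Pax6 and Vim in the middle block lie at like levels, and the 12 genes in the bottom block lie higher in the 2 aged libraries. Open symbols mark libraries without a count.

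Several transcription factors that define retinal identity were at like levels in both groups. Pax6, the eye master regulator, was at 641, 668 and 679 CPM in the progenitors and 647 and 730.3 CPM in the aged glia (log2 -0.06 ± 0.07, SE, adjusted p 0.497). It did not pass edgeR's quasi-likelihood test, and its groups overlapped. It passes, as slightly lower in progenitors, when the library-split genes are left out of the fit, at log2 -0.17 (adjusted p 0.0485). Rax, at 298, 292 and 295 CPM in the progenitors and 349 and 358 CPM in the aged glia, and Six3, at 135, 133 and 129.6 CPM in the progenitors and 164 and 157 CPM in the aged glia, were slightly lower in progenitors, by log2 -0.26 and -0.27, and both calls are lost with upper-quartile scaling. Sox2, the neural stem cell factor, was at 236, 194 and 219 CPM in the progenitors, against 331 and 310.1 CPM in the aged glia, a log2 change of -0.57 ± 0.09 whose call is lost in the fit over all 10 libraries. Six6 was modestly higher, at 323, 291 and 306 CPM in the progenitors, against 180.4 and 206 CPM in the aged glia.

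Other members of the eye-field list moved strongly. Of 29 tested, 16 were higher and 10 lower, with a median log2 change of 0.54. Sfrp2 was at least 39137-fold higher in progenitors, with 3 counts over the aged libraries taken as the limit of no count. Foxn4, the forkhead factor that gives progenitors competence for amacrine and horizontal fates, was at 170.4, 181 and 197 CPM in progenitors with no count in aged glia, at least 3621-fold higher. Fgf15 changed by 10.95 ± 0.22 on the log2 scale, and by 11.66 without aged library 2. Ccnd1, the cyclin of retinal progenitors, was at 1397, 1195 and 1372 CPM in the progenitors, against 309 and 322 CPM in the aged glia, 4.19-fold higher in progenitors, so aged glia kept a measurable level. Fzd5, a Wnt receptor, was lower, at 806, 755 and 789 CPM in the progenitors, against 1471 and 1641 CPM in the aged glia. Lhx2, at 1.26, 0.724 and 1.50 CPM in the progenitors, against 309 and 335 CPM in the aged glia, and Tbx5 are in the library-split set, with Lhx2 at 3.56 and 2.78 CPM in young glia.

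The genes of neuron birth were higher in progenitors almost throughout. Of 38 tested, 35 were higher and 3 lower, with a median log2 change of 5.18, or 5.03 with genes at zero counts placed at their limit. Atoh7, the bHLH factor that ganglion cells require, was at 438, 321 and 411 CPM in progenitors and had no count in aged glia, at least 7841-fold higher. Neurog2, a proneural bHLH factor of neurogenic progenitors, was at 82.4, 60.3 and 80.1 CPM in the progenitors, against 1.64 and 1.86 CPM in the aged glia. Sox11, an SoxC factor of newborn neurons, was at 1353, 1118 and 1334 CPM in the progenitors, against 0.641 and 1.61 CPM in the aged glia. Every progenitor library lay above both aged libraries for these genes, which was not set against all genes tested.

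Genes of newborn neurons were in the progenitor libraries too. Pou4f2, a ganglion cell factor, was at 146, 73.9 and 122 CPM in the progenitors, against 0 and 0.0350 CPM in the aged glia, and with its single count in the aged libraries the ratio was 6957 (95% counting interval 1248 to 274827). Isl1, which acts with Pou4f2 in ganglion cells, was at 89.5, 57.6 and 81.3 CPM in the progenitors, against 1.64 and 2.31 CPM in the aged glia. Dcx, the microtubule protein of migrating neurons, was at 202, 85.9 and 167 CPM in the progenitors, against 0.128 and 0.140 CPM in the aged glia, and Stmn2, an axon growth protein, was at 138, 62.7 and 113 CPM in the progenitors, against 0.609 and 2.00 CPM in the aged glia. Progenitor library 2 was the lowest progenitor library for 37 of the 38 genes, and the list summed to 5236, 3491 and 4775 CPM in progenitors, against 1509.7 and 1314 CPM in aged glia. The 3 genes lower in progenitors were Crx, the photoreceptor homeobox factor, at 21.3, 16.8 and 24.997 CPM in the progenitors, against 196 and 141 CPM in the aged glia, Btg2, an antiproliferative gene, at 117, 89.2 and 111 CPM in the progenitors, against 830.3 and 656 CPM in the aged glia, and Prox1, at 90.5, 84.7 and 86.5 CPM in the progenitors, against 309 and 327 CPM in the aged glia. Crx moves with the photoreceptor RNA of the aged libraries given above, whose part in this result was not tested.

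Notch signalling, which keeps progenitors undifferentiated while neighbours turn neuronal in development, had members moving both ways. Of 29 genes tested, 10 were higher, 12 lower and 7 did not pass, with a median log2 change of 0.03. Over all genes tested, 39.4% were higher and 39.8% lower. Among the ligands, Dll1 was at 98.3, 85.5 and 96.9 CPM in the progenitors, against 24.1 and 18.2 CPM in the aged glia. Among the receptors, Notch1 was lower, at 239, 216 and 237 CPM in the progenitors, against 1044 and 1193 CPM in the aged glia, and Notch2 was lower too, at 176, 194 and 167 CPM in the progenitors, against 1300.5 and 1441 CPM in the aged glia. Notch3 went the opposite way, at 236, 272 and 231 CPM in the progenitors, against 12.2 and 10.4 CPM in the aged glia, a log2 change of 4.44 ± 0.12 (SE). The fringe enzyme Mfng, which modifies Notch, was at 53.8, 39.2 and 50.9 CPM in the progenitors, against 0.417 and 0.911 CPM in the aged glia, and Rbpj, the DNA-binding partner of the cleaved receptor, was at 350.1, 302 and 342 CPM in the progenitors, against 93.4 and 96.4 CPM in the aged glia. The target genes were lower in progenitors. Hes1 was at 109.7, 99.3 and 94.6 CPM in the progenitors, against 302 and 318 CPM in the aged glia, Hes5 was at 99.3, 67.8 and 88.6 CPM in the progenitors, against 158 and 174 CPM in the aged glia, Nrarp was at 66.5, 50.2 and 59.0 CPM in the progenitors, against 144 and 169 CPM in the aged glia, and Hey2 had the widest gap of these, at 1.39, 2.49 and 2.06 CPM in the progenitors, against 167 and 173 CPM in the aged glia. Receptors, their partner and their targets did not share a direction.

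Cell division separated the groups clearly. Of 42 genes of DNA replication tested, 40 were higher and 2 did not pass edgeR's quasi-likelihood test, with a median log2 change of 3.35. Mcm2, a subunit of the replicative helicase, was at 316, 311 and 299 CPM in the progenitors, against 13.3 and 11.6 CPM in the aged glia, a log2 change of 4.63 ± 0.09 (SE). Mcm5, of the same complex, was at 220.5, 229 and 212 CPM in the progenitors, against 6.45 and 8.90 CPM in the aged glia. Rrm2, the cycle-regulated subunit of ribonucleotide reductase, was at 311, 291 and 315 CPM in the progenitors, against 0 and 0.210 CPM in the aged glia. Pcna, the sliding clamp, was at 283, 267 and 256 CPM in the progenitors, against 48.2 and 39.6 CPM in the aged glia, so that part of the replication machinery stayed measurable in aged glia. The genes that did not pass were Prim2, at 11.6, 10.3 and 14.002 CPM in the progenitors and 13.7 and 13.1 CPM in the aged glia, and Pola1, at 22.4, 22.8 and 23.3 CPM in the progenitors and 21.6 and 20.5 CPM in the aged glia, named here as the exceptions after their values were seen.

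Mitosis genes were further apart. Of 36 tested, 35 were higher, with a median log2 change of 7.01 and a summed level of 6341, 6282 and 6643 CPM in progenitors, against 834 and 812 CPM in aged glia. Mki67, the proliferation antigen, was at 864, 885 and 949 CPM in the progenitors, against 0.224 and 0 CPM in the aged glia. Top2a, the topoisomerase that separates chromosomes, was at 1139.5, 1058 and 1167 CPM in the progenitors, against 0.321 and 0 CPM in the aged glia, and Cdk1, the mitotic kinase, was at 149, 144 and 149 CPM in the progenitors, against 0.353 and 0.140 CPM in the aged glia. Ccnb1, cyclin B1, was at 219, 207 and 199.6 CPM in progenitors with no count in aged glia, at least 4168-fold higher. Cenpf, a kinetochore protein, at 443, 456 and 500.3 CPM, and Bub1, a spindle checkpoint kinase, at 159, 165 and 176 CPM, also had no count in aged glia. The list had 1 exception. Spc25, annotated as a subunit of the NDC80 kinetochore complex, was at 79.1, 71.3 and 76.1 CPM in the progenitors, against 725 and 701 CPM in the aged glia, a log2 change of -3.24 ± 0.07 (SE) in the other direction. Spc25 thus made up most of the list's sum in the aged libraries.

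Many start regions of these genes hold letters known from cell-cycle promoters, and 4 are shown for genes described above, so that the letters can be seen in place. Promoters from RefSeq (GRCm38.p6) were searched on both strands over 250 bases before to 50 after the annotated start. The letters TTTGAA and TTCGAA, the cell-cycle homology region (CHR) through which mitotic genes are known to be held off in resting cells, were found in 21 of 28 mitosis promoters (75%), against 13.05% of the 11117 promoters of genes tested and 19.4% of all 27025 promoters. E2F site letters (TTTCCCGC, TTTCGCGC, TTTGCCGC or TTTGGCGC) were found in 11 of 33 replication promoters (33.3%), against 3.97% of the promoters of genes tested. No CHR match overlaps an E2F match in the sequences printed. Bases before the start are printed 5′ to 3′ on the gene's strand, with matches in capitals. Mki67 is given from chr7:135716380-135716629 (minus strand) with CHR letters at 2 places, Top2a from chr11:99024190-99024229 (minus strand) with CHR letters read on the other strand, Cdk1 from chr10:69352913-69352952 (minus strand), and Mcm5 from chr8:75109259-75109508 (plus strand), where 2 overlapping E2F matches run together.
Mki67: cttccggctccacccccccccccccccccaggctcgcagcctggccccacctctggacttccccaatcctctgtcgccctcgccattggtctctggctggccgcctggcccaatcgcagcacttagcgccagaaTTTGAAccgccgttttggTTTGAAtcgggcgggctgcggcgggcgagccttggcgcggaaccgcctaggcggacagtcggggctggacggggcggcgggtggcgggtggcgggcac
Top2a: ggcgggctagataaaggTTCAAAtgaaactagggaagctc
Cdk1: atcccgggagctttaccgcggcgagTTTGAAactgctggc
Mcm5: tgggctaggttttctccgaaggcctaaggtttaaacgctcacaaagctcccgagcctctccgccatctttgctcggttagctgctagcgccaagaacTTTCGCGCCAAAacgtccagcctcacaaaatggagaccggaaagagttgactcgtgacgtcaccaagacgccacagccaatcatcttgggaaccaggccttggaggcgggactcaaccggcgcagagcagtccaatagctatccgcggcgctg
A match of letters is a description of the sequence and was not tested as a binding site.

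Regulators of the entry into the cycle were mostly higher in progenitors. Of 24 genes tested, 16 were higher and 6 lower. E2f1, an activator of replication genes, was at 95.1, 85.9 and 97.7 CPM in the progenitors, against 8.88 and 9.32 CPM in the aged glia. Cdk4, the partner kinase of the D cyclins, was at 534, 528 and 504 CPM in the progenitors, against 49.2 and 58.8 CPM in the aged glia. E2f7, an atypical E2F repressor, was at 88.4, 86.9 and 94.8 CPM in progenitors with no count in aged glia, at least 1789.9-fold higher. Cdkn1b, the inhibitor p27Kip1 that holds Müller glia out of the cycle in mice, was lower, at 108, 93.1 and 114 CPM in the progenitors, against 431 and 449.8 CPM in the aged glia. Cdkn1c, the related inhibitor p57Kip2, was higher, at 79.0, 94.4 and 83.2 CPM in the progenitors, against 16.6 and 19.1 CPM in the aged glia. Ccnd3, a D cyclin of Müller glia, was lower at 126, 126 and 113 CPM in the progenitors, against 273 and 267 CPM in the aged glia. Rb1, at 39.5, 28.6 and 38.5 CPM in the progenitors, against 484 and 468 CPM in the aged glia, is in the library-split set, while the pocket protein gene Rbl2, which is not, was lower at 31.1, 31.8 and 32.4 CPM in the progenitors, against 138 and 139.9 CPM in the aged glia. Cdkn1a, the inhibitor p21, did not pass at 9.54, 1.61 and 1.34 CPM in the progenitors and 3.88 and 2.49 CPM in the aged glia (adjusted p 0.613), and progenitor library 1 stood apart, since without it the log2 change was -1.12 with an adjusted p of 0.045 by edgeR's quasi-likelihood test.

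Early-stage regulators, known from heterochronic control of developmental timing, were among the widest differences. Of 14 genes, 13 were higher and 1 lower, with a median log2 change of 7.02. Lin28b, which blocks let-7 microRNA maturation, was at 85.5, 84.7 and 84.6 CPM in the progenitors, against 0 and 0.0701 CPM in the aged glia, and its 2 counts in the aged libraries gave a ratio of 2539 (95% counting interval 702 to 20972). Its relative Lin28a was at 21.9, 26.4 and 19.6 CPM in the progenitors, against 1.06 and 0.876 CPM in the aged glia. Hmga2, a let-7 target and chromatin protein of young stem cells, was at 116, 144 and 115 CPM in progenitors with no count in aged glia, at least 2468-fold higher. The RNA-binding proteins Igf2bp1, at 658, 633 and 624 CPM in the progenitors, against 0.128 and 0.0350 CPM in the aged glia, and Igf2bp3, at 244, 242 and 258 CPM in the progenitors, against 0.0641 and 0 CPM in the aged glia, lay at log2 changes of 12.79 ± 0.17 and 12.61 ± 0.21 (SE). Without aged library 1 these were 13.89 and 15.07, and Igf2bp3 was at 11.77 without aged library 2. Mycn, the growth-promoting Myc family member of the embryonic retina, was at 143, 129 and 128 CPM in the progenitors, against 0.577 and 0.0350 CPM in the aged glia. The orphan receptor gene Nr6a1 was the member that was lower, at 10.9, 11.1 and 13.0 CPM in the progenitors, against 39.2 and 37.8 CPM in the aged glia. Progenitor library 2, the lowest for neuron genes, was the lowest for 2 of these 14 genes and the highest for 7.

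Late and gliogenic factors moved the other way, though not as a block. Of 20 genes, 13 were lower in progenitors, 5 higher and 2 did not pass, with a median log2 change of -2.40. Nfix, a nuclear factor I gene that late progenitors use for late fates, was at 2.65, 1.53 and 1.58 CPM in the progenitors, against 837 and 814 CPM in the aged glia, a log2 change of -8.71 ± 0.14 (SE). Its relatives Nfib, at 33.6, 38.5 and 37.7 CPM in the progenitors, against 499.7 and 518 CPM in the aged glia, and Nfic, at 23.9, 22.6 and 22.4 CPM in the progenitors, against 211 and 208 CPM in the aged glia, were present at low levels in progenitors. Nfia, at 0.632, 1.05 and 0.712 CPM in the progenitors, against 468 and 482 CPM in the aged glia, was at 35.6 and 44.1 CPM in young glia and is in the library-split set, as is Zbtb20. Sox9, which glia of the retina need, was at 43.7, 38.6 and 40.9 CPM in the progenitors, against 455 and 449.6 CPM in the aged glia, and Sox8 was at 9.86, 10.3 and 8.78 CPM in the progenitors, against 442 and 453 CPM in the aged glia. The other direction held for Pou2f2, at 33.3, 38.7 and 38.999 CPM in the progenitors, against 0.577 and 1.12 CPM in the aged glia, for Pou2f1, at 289, 284 and 288 CPM in the progenitors, against 168 and 184 CPM in the aged glia, and for the nuclear receptor gene Rorb, at 1424, 1229 and 1456 CPM in the progenitors, against 819 and 849.8 CPM in the aged glia. Id1, a BMP target, was at 58.6, 59.6 and 66.7 CPM in the progenitors and 68.4 and 67.1 CPM in the aged glia and did not pass (adjusted p 0.169).

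DNA methylation enzymes and readers split evenly, with 9 of 19 higher and 9 lower, as did all genes tested (39.4% higher and 39.8% lower). Members tied to replication had the widest rises among those named. Uhrf1, which brings Dnmt1 to newly copied DNA, was at 433, 424 and 447 CPM in the progenitors, against 0.930 and 1.19 CPM in the aged glia, a log2 change of 8.68 ± 0.12 (SE), and Hells, a remodeller needed for methylation, was at 163, 159 and 164 CPM in the progenitors, against 2.63 and 2.94 CPM in the aged glia. Dnmt1, the maintenance enzyme, changed far less, at 173, 176 and 170.2 CPM in the progenitors, against 83.6 and 95.2 CPM in the aged glia, 1.93-fold higher. Dnmt3b, the embryonic de novo enzyme, was at 111, 113 and 106 CPM in the progenitors, against 6.28 and 5.50 CPM in the aged glia. Dnmt3a, the other de novo enzyme, was at 0.821, 1.05 and 0.316 CPM in the progenitors, against 165 and 169.7 CPM in the aged glia but was at 0 and 1.39 CPM in young glia and is in the library-split set. The oxidising enzymes differed by little. Tet2 was at 96.1, 102 and 109.6 CPM in the progenitors and 153 and 139.5 CPM in the aged glia (log2 -0.51), and Tet3 was at 287, 258 and 277 CPM in the progenitors and 219.6 and 231 CPM in the aged glia (log2 0.28). Tet1, at 158, 156 and 154 CPM in the progenitors and 174 and 187 CPM in the aged glia (log2 -0.21), lost its call under 9 alternatives, among them leaving out progenitor library 3 (adjusted p 0.0709) or aged library 2 (adjusted p 0.101).

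Chromatin regulators held paralogs that moved in opposite directions. Of 32 genes, 20 were higher and 12 lower, and 4 of the lower genes are in the library-split set. Ezh2, the methyltransferase subunit of polycomb complex PRC2 in dividing cells, was at 256, 251 and 275 CPM in the progenitors, against 20.2 and 27.6 CPM in the aged glia, while its paralog Ezh1 was lower, at 30.1, 27.7 and 26.7 CPM in the progenitors, against 114 and 117 CPM in the aged glia. Of the polycomb CBX proteins, Cbx2 was higher at 142, 137 and 139.6 CPM in the progenitors, against 4.46 and 4.28 CPM in the aged glia, and Cbx7 was lower at 5.88, 5.47 and 4.51 CPM in the progenitors, against 78.4 and 77.6 CPM in the aged glia. The high-mobility-group genes Hmgb2, at 144, 150.3 and 155 CPM in the progenitors, against 13.5 and 14.1 CPM in the aged glia, and Hmgb3, at 139, 123 and 126 CPM in the progenitors, against 2.69 and 2.21 CPM in the aged glia, were higher. The groups did not overlap for any of these 6 genes, and the share of such genes among all genes tested was not counted.

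Growth genes were higher in progenitors by smaller amounts. Of 28 genes of growth and ribosome biogenesis, 25 were higher and 2 lower, with a median log2 change of 1.80. Npm1, the nucleolar chaperone nucleophosmin, was at 624, 589 and 594 CPM in the progenitors, against 53.6 and 57.5 CPM in the aged glia, and Mycl was at 111, 103 and 104 CPM in the progenitors, against 3.05 and 4.80 CPM in the aged glia. Fbl, the methyltransferase fibrillarin of ribosomal RNA, was at 35.7, 37.7 and 36.0 CPM in the progenitors, against 6.00 and 4.63 CPM in the aged glia, and Dkc1, which modifies ribosomal RNA and serves telomerase, was at 101, 104.5 and 100.5 CPM in the progenitors, against 26.3 and 27.3 CPM in the aged glia. Ncl, nucleolin, was at 374, 356 and 367 CPM in the progenitors, against 301 and 297 CPM in the aged glia, a log2 change of 0.29 ± 0.06 (SE).

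Most genes of glycolysis were lower in progenitors. Of 27 genes of glycolysis and glycogen, 17 were lower in progenitors and 7 higher, of which 1 was higher with a required change of at least 2-fold, and 3 were called higher among genes that overlap no other gene. Aldoc, the glial aldolase, was at 2.59, 2.09 and 1.90 CPM in the progenitors, against 876 and 830.2 CPM in the aged glia, a log2 change of -8.58 ± 0.11 (SE). Pygm, a glycogen phosphorylase, was at 3.60, 3.94 and 3.80 CPM in the progenitors, against 115 and 107 CPM in the aged glia. Ldha, lactate dehydrogenase A, was higher, at 472, 434 and 481 CPM in the progenitors, against 251 and 214 CPM in the aged glia, as was the lactate exporter Slc16a3 at 34.3, 38.99 and 38.7 CPM in the progenitors, against 6.12 and 6.41 CPM in the aged glia. Hk2, a hexokinase, was slightly lower at 71.5, 80.5 and 69.9 CPM in the progenitors, against 106 and 96.3 CPM in the aged glia, a call lost in the fits over 10 and over 8 libraries.

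Genes of sterol and fatty acid synthesis leaned towards progenitors by count, with modest sizes. Of 26 tested, 15 were higher and 8 lower, with a median log2 change of 0.37. With a required change of at least 2-fold, 6 were higher and 3 lower. The summed level was lower in progenitors, at 4066, 3766 and 4034 CPM, against 6426 and 5930 CPM in the aged glia. Hmgcs1, the enzyme that makes HMG-CoA, was at 637, 508 and 626 CPM in the progenitors, against 163 and 131 CPM in the aged glia, and Fdps was at 71.8, 60.3 and 60.4 CPM in the progenitors, against 13.2 and 15.2 CPM in the aged glia. The 3 members at least 4-fold lower, Acaca, Srebf1 and Scd2, are all in the library-split set.

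Retinoid genes moved both ways. Of 20 tested, 7 were higher and 11 lower, beside 39.4% higher and 39.8% lower over all genes tested. The retinoic acid binding proteins Crabp1, at 148, 113 and 121 CPM in the progenitors, against 10.9 and 14.02 CPM in the aged glia, and Crabp2, at 142, 152 and 147 CPM in the progenitors, against 1.06 and 0.876 CPM in the aged glia, were higher in progenitors. Aldh1a3, the retinoic acid synthesising enzyme of the ventral embryonic retina, was at 285, 356 and 274 CPM in the progenitors, against 4.17 and 1.54 CPM in the aged glia, and its dorsal counterpart Aldh1a1 was at 700.2, 1439 and 1029 CPM in the progenitors, against 498 and 391 CPM in the aged glia. Rdh10, which oxidises retinol and serves the cone cycle in adult glia, was lower at 54.7, 57.8 and 54.9 CPM in the progenitors, against 345 and 325 CPM in the aged glia.

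Genes of glial reactivity were low in progenitors. Of 26 tested, 22 were lower and 2 higher, with a median log2 change of -4.27, and 5 of the lower ones are in the library-split set. Gfap, the filament protein of reactive glia, was at 0.695, 1.45 and 0.949 CPM in the progenitors, against 52.6 and 81.0 CPM in the aged glia. Stat3, the transcription factor that drives it, was at 18.95, 18.7 and 16.1 CPM in the progenitors, against 177 and 202 CPM in the aged glia, and Osmr, a receptor of the oncostatin cytokine, was at 0, 0.0804 and 0.0791 CPM in the progenitors, against 178 and 198 CPM in the aged glia. Cd44, the hyaluronan receptor, was at 2.40, 2.25 and 1.82 CPM in the progenitors, against 186 and 200.3 CPM in the aged glia. C4b, the complement component, was at 0.0632, 0.724 and 0.316 CPM in the progenitors, against 189 and 292 CPM in the aged glia. Nes, the filament protein of neural progenitors, went against the list at 247, 245 and 264 CPM in the progenitors, against 14.9 and 13.2 CPM in the aged glia, a log2 change of 4.16 ± 0.09 (SE). The other higher member, Ggta1, at 1.64, 1.85 and 1.42 CPM in the progenitors, against 0.962 and 0.315 CPM in the aged glia (adjusted p 0.0483), lost its call under 12 alternatives, including without any 1 of the 3 progenitor libraries (adjusted p between 0.0909 and 0.124) and without aged library 2 (0.146).

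Immune surveillance genes were lower in progenitors without exception. All 29 genes tested from the interferon and antigen presentation list were lower, with a median log2 change of -5.50 and 26 of them at least 4-fold. H2-K1, a classical class I heavy chain, was at 3.54, 3.46 and 3.24 CPM in the progenitors, against 139.8 and 121 CPM in the aged glia, and B2m, its light chain, was at 10.4, 10.9 and 9.57 CPM in the progenitors, against 86.9 and 81.4 CPM in the aged glia. Tap2, a subunit of the peptide transporter, was at 0.190, 0.402 and 0.316 CPM in the progenitors, against 75.5 and 71.1 CPM in the aged glia. Aged library 1 was the higher aged library for 24 of the 29 genes, with sums of 107, 107 and 106 CPM in progenitors, against 1721 and 1385 CPM in aged glia. The microglial RNA given above also differed between the groups and its part in this result was not tested.

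Immediate early genes, which rise within minutes of stimulation or tissue dissociation, were lower in progenitors for all 20 genes tested. Fos was at 0.632, 0.402 and 0.316 CPM in the progenitors, against 996 and 791 CPM in the aged glia, Egr1 was at 0.316, 1.29 and 0.396 CPM in the progenitors, against 611 and 506 CPM in the aged glia, and Jun was at 48.3, 39.8 and 44.6 CPM in the progenitors, against 953 and 699 CPM in the aged glia. The adult cells were sorted and the labels state no sort for the progenitors, so cell preparation and cell type cannot be told apart for this list. Circadian clock genes were also mostly lower in progenitors, 17 of 19. Dbp, a clock output gene, was at 5.31, 5.87 and 5.14 CPM in the progenitors, against 434 and 474 CPM in the aged glia, Nr1d1, the repressor REV-ERB alpha, was at 6.70, 6.43 and 6.01 CPM in the progenitors, against 562 and 546 CPM in the aged glia, and Per1 was at 28.6, 27.4 and 24.9 CPM in the progenitors, against 222 and 223 CPM in the aged glia. Arntl, the activator BMAL1, is in the library-split set. The hour of collection is not given in the sources used here, and its part was not tested. Metal and antioxidant genes were lower for 16 of 20, among them the metallothioneins Mt1, at 2.15, 3.30 and 0.475 CPM in the progenitors, against 41.2 and 46.5 CPM in the aged glia, and Mt3, at 0.0632, 0.241 and 0.237 CPM in the progenitors, against 15.4 and 12.9 CPM in the aged glia.

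Of 19 listed genes of senescence and inflammation, 11 could be tested, with a median log2 change of -3.08. Of these, 6 were lower in progenitors and 2 higher. The list holds a gene that is lost in senescent cells, so a count by direction alone does not show whether its members conflict. Lmnb1, the nuclear lamin that is lost in senescent cells, was at 433, 429 and 439 CPM in the progenitors, against 22.1 and 18.5 CPM in the aged glia, a log2 change of 4.42 ± 0.10 (SE). Igfbp7 was at 0.1264, 0.402 and 0 CPM in the progenitors and 14.3 and 0.841 CPM in the aged glia, with aged library 1 far above aged library 2. Cdkn2b and Glb1 are in the library-split set.

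**Figure D4:**
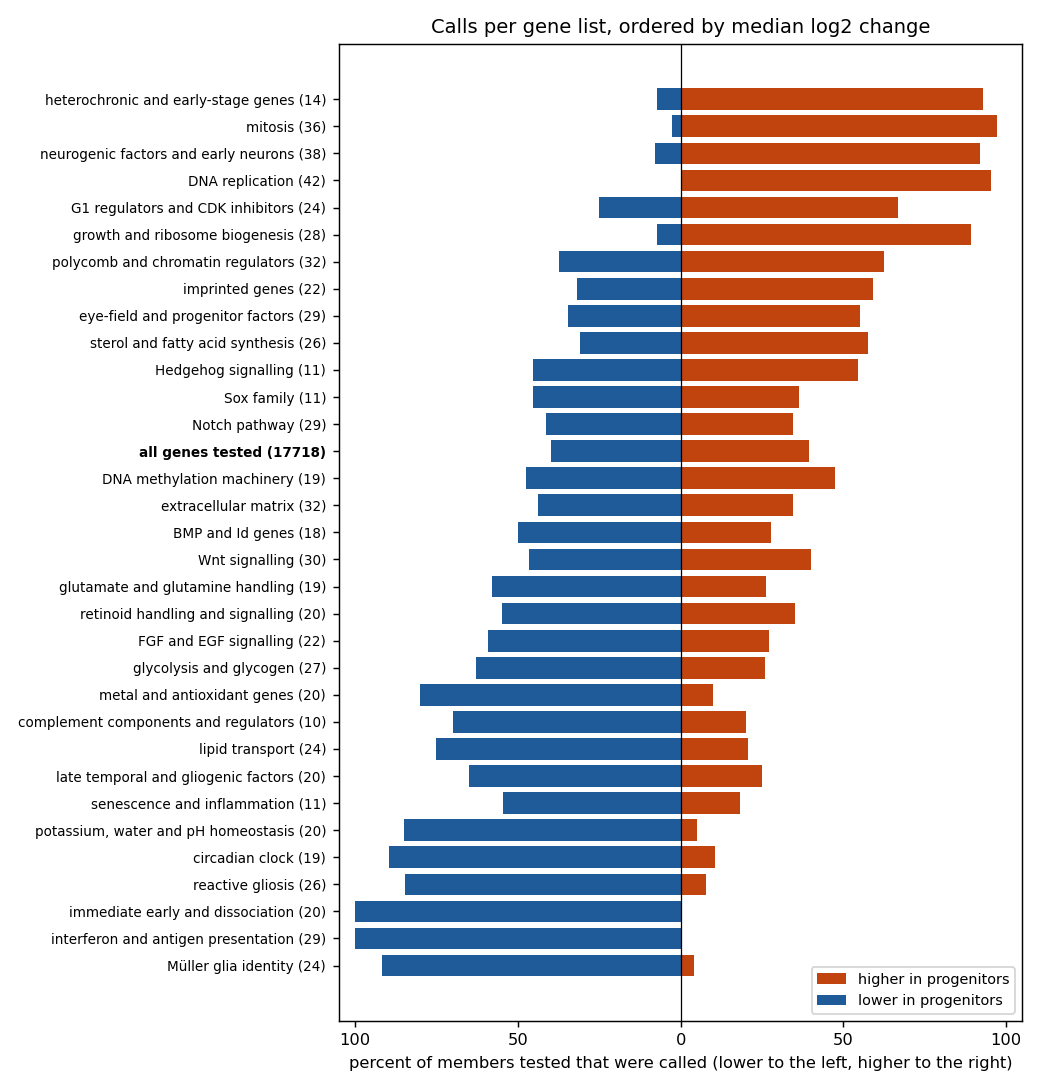
Percent of tested members called higher (right) or lower (left) in progenitors for each biology list and for all genes tested (bold label), ordered by median log2 change, with the number tested in brackets. Early-stage, mitosis, neurogenic and replication lists are almost wholly higher, and the Müller identity, interferon and immediate early lists are almost wholly lower, while all genes tested are near even at 39.4% and 39.8%.

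Receptors and ligands of the main signalling pathways moved both ways within each family. So did all genes tested, with 39.4% higher and 39.8% lower. In the FGF and EGF list 6 of 22 genes were higher and 13 lower. Egfr was at 13.4, 19.4 and 16.1 CPM in the progenitors, against 275 and 322 CPM in the aged glia, Nrg1, an ErbB ligand, was at 58.8, 57.9 and 63.0 CPM in the progenitors, against 8.98 and 8.66 CPM in the aged glia, and the receptor Erbb4 was at 19.5, 15.7 and 18.9 CPM in the progenitors, against 1.86 and 2.59 CPM in the aged glia. Fgf9 was at 95.3, 92.5 and 92.0 CPM in the progenitors and 87.3 and 99.7 CPM in the aged glia and did not pass (adjusted p 0.973). Fgfr1 is in the library-split set. In the Wnt list 12 of 30 were higher and 14 lower. The receptor Fzd2 was at 67.9, 63.4 and 66.3 CPM in the progenitors, against 4.59 and 4.17 CPM in the aged glia, Lgr5, the R-spondin receptor, was at 84.7, 91.4 and 86.3 CPM in the progenitors, against 6.19 and 7.99 CPM in the aged glia, and Axin2, a target and brake of the pathway, was lower, at 10.5, 16.1 and 14.002 CPM in the progenitors, against 55.2 and 63.1 CPM in the aged glia.

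Hedgehog and BMP genes were also divided, as were all genes tested (39.4% higher and 39.8% lower). Ptch1, the Hedgehog receptor and target, was lower, at 105.4, 98.3 and 97.5 CPM in the progenitors, against 1293 and 1467 CPM in the aged glia, whereas Gli1, the other classical target, was higher at 4.49, 3.22 and 3.48 CPM in the progenitors, against 0 and 0.561 CPM in the aged glia, a call that is lost in the fit over all 10 libraries. Gli3 was at 194, 212 and 206 CPM in the progenitors, against 87.0 and 88.3 CPM in the aged glia. Of 18 BMP and Id genes, 5 were higher and 9 lower, and Bmpr1b, a BMP receptor, was at 108, 111 and 111 CPM in the progenitors, against 281 and 280.4 CPM in the aged glia. Extracellular matrix genes had 11 of 32 higher and 14 lower, and the fit over all 10 libraries called 6 higher. Fn1, fibronectin, was at 504, 607 and 548 CPM in the progenitors, against 34.6 and 57.0 CPM in the aged glia. Sparc, a matricellular protein, was lower at 211, 229.8 and 196 CPM in the progenitors, against 1440.2 and 1397 CPM in the aged glia, and Col2a1, a vitreous collagen, was lower at 208, 237 and 215 CPM in the progenitors, against 842 and 926 CPM in the aged glia. Progenitor library 2 was the highest progenitor library for 25 of the 32 matrix genes. It was also the highest for 8 of 13 markers of periocular mesenchyme, of which 10 were higher in progenitors, and the part of such cells in the matrix result was not tested.

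Imprinted genes leaned towards progenitors. Of 22 tested, 13 were higher and 7 lower, with a median log2 change of 0.65. Plagl1, a growth-restraining zinc finger gene, was at 1090.2, 1005 and 1131 CPM in the progenitors, against 157 and 142 CPM in the aged glia, and Grb10, an adaptor that damps insulin signalling, was at 1864, 1798 and 1767 CPM in the progenitors, against 185 and 203 CPM in the aged glia. H19, the maternally expressed noncoding RNA, was at 497, 735 and 534 CPM in the progenitors, against 0.577 and 3.36 CPM in the aged glia. Its neighbour Igf2 was lower, at 239, 367 and 249 CPM in the progenitors, against 426 and 423 CPM in the aged glia, a log2 change of -0.57 ± 0.16 whose call is lost with upper-quartile scaling and in the fits over 8 and 10 libraries. Meg3, another maternally expressed noncoding RNA, was at 1.64, 2.89 and 1.03 CPM in the progenitors, against 89.3 and 98.5 CPM in the aged glia and is in the library-split set. Xist, the RNA of the inactive X chromosome, was at 813, 1586 and 2551 CPM in the progenitors, against 0.802 and 0.0350 CPM in the aged glia, while the Y-linked gene Ddx3y was lower in progenitors but present in both groups, at 33.7, 22.5 and 18.3 CPM in the progenitors, against 78.1 and 79.9 CPM in the aged glia. The labels give no sex, and the part of sex in other results was not tested.

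The genes with the lowest log2 changes show how far the library-split set shapes the extremes. Of the 10 lowest under the naming rule, 9 belong to it, among them Trpm3, a cation channel gene, with no count in progenitors, 2401 and 2454 CPM in aged glia and no count in young glia, and Arhgap32, Pcdh15, Tenm4, Stag1, Pde4d and Kdm4c. The exception was Pde6b, a rod phosphodiesterase subunit, with no count in progenitors and 317 and 253 CPM in aged glia. When genes low in young glia are left out, a choice made after the values were seen, 6 of the 10 lowest genes are on the photoreceptor list, among them Pde6b, Cnga1, Opn1sw, Arr3 and Pde6a. At the other end, the 10 highest held 2 globin genes, 3 mitosis genes, the retinal genes Sfrp2, Atoh7 and Foxn4, and Fndc3c1 and Mir5121. Mir5121, at 481, 458 and 470.3 CPM in progenitors with no count in aged glia, is a count of reads at the annotated locus, and the mature microRNA was not measured apart. Small RNA genes ran this way as classes. Of 152 microRNA genes tested 69.1% were called higher, and of 66 precursor microRNA genes 66.7%, beside 39.4% of all genes tested.

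Methylation of DNA from the same kinds of cells offered a second readout near the gene starts. It was measured by reduced representation bisulfite sequencing (RRBS), which reads CpG-rich fragments, in 3 progenitor and 3 aged libraries. The deposited percent values were averaged over windows. A window held the CpG positions within 1000 bases of a gene start with at least 10 reads in every library, and the 950132 positions shared by the 6 libraries gave 10906 windows, 7878 of them at genes tested in RNA. With 3 libraries against 3, the smallest exact permutation p is 0.10, so these differences were not tested, and a window is called different where groups do not overlap and differ by at least 10 percentage points. Progenitors were more methylated in 329 of all windows (3.02%) and less in 144 (1.32%). Among windows of genes tested in RNA, progenitors were more methylated in 129 (1.64%) and less in 66 (0.838%).

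Higher methylation in progenitors went with genes of lower RNA there more often than the share of such genes. Of the 129 genes with a more methylated start, 56 (43.4%) had RNA at least 4-fold lower in progenitors, while such genes made up 18.01% of all windows. Some of these 56 genes are in the library-split set, such as Meg3 and Nfia, and some are photoreceptor genes, such as Nr2e3 and Prph2. Their part in this share was not tested. Read from the RNA side, 56 of 1419 genes at least 4-fold lower had a more methylated start (3.95%), and 7 of 880 genes at least 4-fold higher did (0.795%). Of the 66 genes with a less methylated start, 16 (24.2%) had RNA at least 4-fold higher in progenitors, while such genes made up 11.2% of all windows, and 19 (28.8%) had RNA at least 4-fold lower, against 18.01% of windows. Some of these 19 genes are in the library-split set as well. Read from the RNA side, 16 of 880 genes at least 4-fold higher (1.82%) and 19 of 1419 at least 4-fold lower (1.34%) had a less methylated start, against 0.838% of all windows. The great majority of genes with a large RNA change had no methylation difference of this size, among them Glul, at 1.59 ± 0.741% in the progenitors and 0.272 ± 0.0255% in the aged glia (SD, n = 3 each), and Mki67, at 1.11 ± 0.930% in the progenitors and 0.262 ± 0.119% in the aged glia.

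Rlbp1, the gene used for the sort, had a wide methylation difference. Over 7 positions, 454 to 523 bases after the gene start, its methylation was 97.4, 90.5 and 92.9% in the progenitors, against 11.3, 19.1 and 5.82% in the aged glia. The groups were far apart at every position, with progenitor means between 79.2% and 100% and aged means between 8.55% and 14.8%. The bases before the Rlbp1 start hold few CpG pairs, and none of the positions compared lies within them. They are shown because Rlbp1 is a glial gene with both a methylation and an RNA difference, 5′ to 3′ from RefSeq (GRCm38.p6, chr7:79387028-79387277, minus strand), with the 6 CpG pairs in capitals.
Rlbp1: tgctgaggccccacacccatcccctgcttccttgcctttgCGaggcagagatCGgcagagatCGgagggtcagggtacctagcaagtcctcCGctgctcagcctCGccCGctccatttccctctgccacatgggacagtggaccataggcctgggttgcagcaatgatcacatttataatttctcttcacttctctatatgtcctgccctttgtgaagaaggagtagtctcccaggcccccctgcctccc

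Most glial genes with a window showed no such difference. More methylated starts were found for 2 of 11 Müller identity genes, 1 of 7 genes of potassium, water and pH homeostasis, 0 of 12 of glutamate handling and 2 of 23 of glycolysis and glycogen. Aldoc was at 77.1 ± 4.92% in the progenitors and 12.9 ± 3.16% in the aged glia (SD, n = 3 each) over 8 positions, Bmpr1b at 66.6 ± 4.59% in the progenitors and 15.0 ± 7.44% in the aged glia over 10, Kcnj10 at 18.99 ± 2.37% in the progenitors and 2.27 ± 1.49% in the aged glia over 17 and Pygm at 25.1 ± 4.34% in the progenitors and 7.75 ± 2.76% in the aged glia over 9. The Kcnj10 difference was uneven over its window, with means by position from 0.957% to 79.2% in the progenitors and from 0 to 9.91% in the aged glia. Positions are counted by strand, so both strands of a CpG can each count. Nfia was at 19.7 ± 6.01% in the progenitors and 1.34 ± 1.36% in the aged glia, with its RNA in the library-split set. The photoreceptor genes Nr2e3, at 91.8 ± 2.54% in the progenitors and 34.1 ± 8.25% in the aged glia, and Prph2, at 89.3 ± 3.33% in the progenitors and 49.7 ± 4.07% in the aged glia, were named for their windows after the values were seen, and they move with the photoreceptor RNA of the aged libraries. Of 14 imprinted genes with a window, 6 were more methylated in progenitors, with Peg3 and Usp29 sharing the same positions. Snrpn was at 32.2 ± 9.90% in the progenitors and 6.94 ± 4.25% in the aged glia, with RNA at 55.2, 47.6 and 49.8 CPM in the progenitors, against 0.128 and 0 CPM in the aged glia, so that RNA and methylation were both higher in progenitors. Snrpn RNA was also read at 60.8 and 54.2 CPM in young glia. Plagl1 methylation was 39.4 ± 8.35% in the progenitors and 22.8 ± 4.20% in the aged glia. Stra6, the receptor of retinol-binding protein, was named in the same way and had less methylation in progenitors, at 9.32 ± 6.61% in the progenitors and 27.9 ± 8.19% in the aged glia, with RNA at 66.8, 97.0 and 78.1 CPM in the progenitors, against 1.76 and 0.561 CPM in the aged glia.

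**Figure D5:**
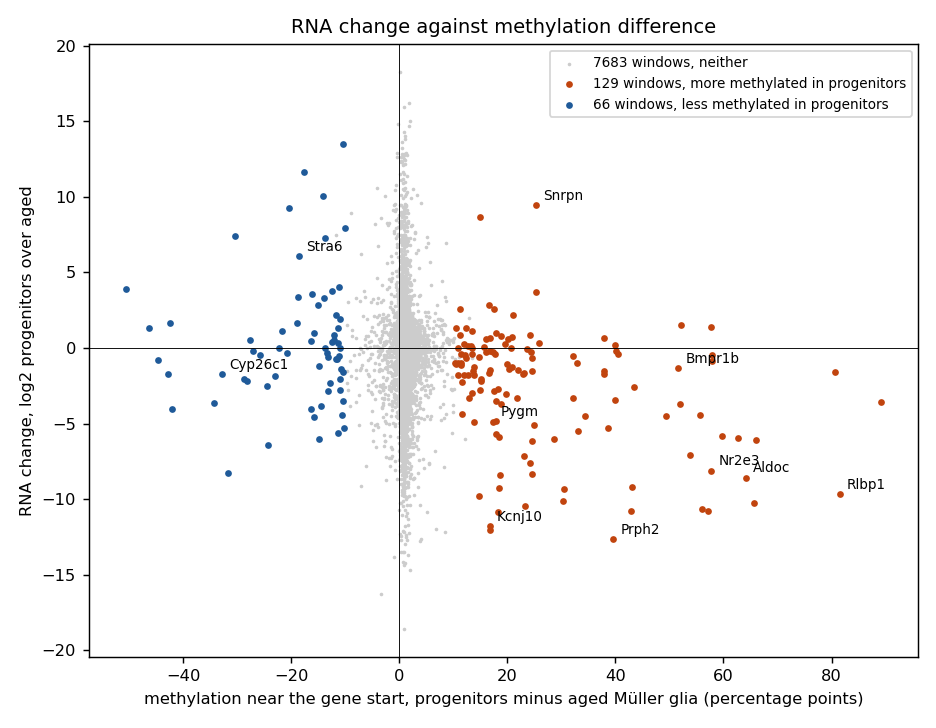
RNA log2 change (vertical, progenitors over aged) against methylation difference near the gene start (horizontal, percentage points, progenitors minus aged) for 7878 genes, each a point. Most points stand near a difference of 0 whatever the RNA change, the 129 more methylated windows lie mostly below the RNA zero line with Rlbp1 among those far to the right, and the 66 less methylated windows lie on both sides of it.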

How the data were processed

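RNA counts per gene were deposited by the authors as 1 table of whole numbers, with no normalization. Over all data types, the submitters' processing notes name Trim Galore 0.4.3, HISAT2 2.0.4, Bismark 0.16.3, methylKit 1.4.0 and the builds mm10 and GRCm38, with no role or order, and the counting tool and its strand setting are not given in the sources used here. Methylation percentages per CpG position were deposited by the authors with their coverage, per the file headers.

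Genes passing edgeR's filterByExpr in the 5 libraries (17718 of 44792) were fitted in R 4.3.3 with edgeR 4.0.16 (TMM scaling, quasi-likelihood test, Benjamini-Hochberg adjustment over all genes tested). A call is an adjusted p under 0.05, and fold changes are progenitors over aged glia. The edgeR fit was also run on simulated counts, and the averaging over methylation windows on simulated positions. Against a group with no count, a fold is a lower bound from 3 counts pooled over that group, and with 1 to 3 counts a ratio is given with its 95% counting interval. These cover counting error only. Total counts per library, given with the results, set the precision.

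Gene symbols were matched to RefSeq (GRCm38.p6) for spans and promoters, for 32094 genes. Methylation positions needed at least 10 reads in all 6 libraries, windows needed 5 positions, and coverage medians were 47 to 81 reads. The members and lists were chosen with earlier results of these data known. Genes are named by rule: a set of fixed genes, the 10 genes at each end of the log2 scale that were called, averaged 8 CPM or more over the libraries and had groups without overlap, and up to 3 higher and 3 lower genes per list with the smallest adjusted p. Other names were chosen after their values were seen, and are marked so. A list of mitochondrially encoded genes had no member in the table and was not used. Some genes that meet the rule are not reported here. Alternatives are given at the end.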

Additional observations from a re-analysis of the deposited data

How the results depend on the processing

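Cdkn1a, which did not pass, lay between log2 -1.12 (passed, without progenitor library 1) and 0.84 when each library was left out, and no gene named by rule that was called changed sign. The numbers of genes called higher and lower moved most with a required change of at least 2-fold, to 3746 and 4637, and with only genes that overlap no other gene, to 3066 and 3070 (at least 4-fold, 1000 and 1316), where fewer genes (7786) were tested. A filter of 5 CPM left 1535 genes at least 4-fold higher. DESeq2 called 6901 higher and 6893 lower. Fits over all 10 RNA libraries called 4987 and 5494, and without the young libraries 6921 and 6833. Leaving out each library in turn gave 6525 to 7155 higher, 6859 to 7124 lower, 2490 to 2852 at least 4-fold higher and 3683 to 3828 at least 4-fold lower. The groups share replicate numbers 1 and 2, and the deviations of same-numbered libraries had correlations of -0.0152 and -0.0601. With 2 aged libraries the aged deviations mirror each other, so these values cannot decide whether same-numbered libraries share more than a number. A fit with the replicate block called 6332 higher and 6536 lower. An alternative added after the data were seen left out the library-split genes and those of the opposite pattern at 2-fold (48 of the genes tested). It called 6425 higher and 6474 lower. With upper-quartile scaling the median of all genes lay 0.175 higher on the log2 scale. The refit without genes of either pattern shifted the genes it shares with the original fit by -0.118, and the refit with non-overlapping genes by -0.156. These shifts bear on genes with changes of this size such as Rax, Six3, Pax6 and Vim. Of 5107 values for the 313 genes named by rule, 4988 stayed on their side of the threshold with no called value changing direction, 108 lost the call, 10 gained it and 1 was Cdkn1a's change of sign, and the cause was not tested. For methylation windows, more and less methylated counts were 216 and 94 within 500 bases, 146 and 31 at 25 points or more, 151 and 89 with at least 10 positions, and 235 and 111 at a coverage of 20 reads. Leaving out each methylation library gave 347 to 376 more methylated and 133 to 152 less methylated windows. With 2 aged RNA libraries, log2 changes of genes near 0 counts in aged glia are imprecise (Mki67 at 12.83, and 16.93 without aged library 1).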

Other observations

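Some further gene groups are given here, to be read beside all genes tested, of which 39.4% were higher and 39.8% lower. Of 9 pigment cell markers tested, 5 were higher in progenitors and 2 lower, with 3 higher when progenitor library 2 was left out or all 10 libraries were fitted together, and the list summed to 69.2, 125 and 63.6 CPM in progenitors and 28.02 and 25.7 CPM in aged glia. Lens markers summed to 4.55, 83.5 and 4.27 CPM in progenitors and 214 and 144 CPM in aged glia, with progenitor library 2 far above the other progenitor libraries, and 2 of 7 were lower, or 5 of 6 without progenitor library 2 and 4 of 14 without aged library 2. Markers of bipolar, amacrine, horizontal and ganglion cells had 8 of 22 higher and 11 lower (median log2 change -0.45), not far from the shares over all genes. Astrocyte and oligodendrocyte markers, whose sums are given above, had 3 of 10 higher and 5 lower, and vascular markers had 2 of 14 higher and 5 lower. Complement components and regulators had 7 of 10 genes lower and 2 higher. Without progenitor library 1, progenitor library 2 or aged library 2 the higher ones were 1, and Cd55, a complement inhibitor (adjusted p 0.0369 by edgeR's quasi-likelihood test), lost its call under 8 alternatives. Of 11 Sox family genes, 4 were higher and 5 lower (median log2 change 0.17), near the shares over all genes.

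Cyp26c1, which degrades retinoic acid and was named for its window after the values were seen, was less methylated in progenitors, at 4.51 ± 1.15% in the progenitors and 37.3 ± 3.62% in the aged glia (SD, n = 3 each), with RNA at 0.821, 1.21 and 1.42 CPM in the progenitors, against 3.05 and 4.52 CPM in the aged glia.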
